A study of Homo sapiens with 8 samples.

Results

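The 6 genes described here are DPP6, PTPRT, RBFOX1, PTPRN2, RGS6 and LRMDA. They are the rows of a table of 60606 genes that were chosen by name because each spans over 0.5 Mb of the genome and had more counts in cells given a tRNA-derived RNA (tDR) than in controls. The difference between the groups was therefore used to choose them, and for these 6 genes it is given below as a description with no test. All 6 passed the filter on low counts, among 17184 genes tested. The cells were HEK293, an established line from human embryonic kidney. Total RNA was read with a stranded total RNA kit for small inputs, which captures unspliced as well as spliced transcripts. The 4 control libraries came from cells transfected with a scrambled mimic and the 4 tDR libraries from cells that received the tRNA-Asp-GTC 3' tDR as a synthetic mimic. Both mimics were given at 50 nM with Lipofectamine RNAiMax, and cells were collected after 48 hours. Separate cultures are not mentioned in the labels, so p-values measure only how these 8 libraries vary, and that variation may be technical. In bulk RNA, fewer cells with a transcript and less transcript per cell cannot be told apart.

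Very long genes are common among genes of the nervous system, where many encode adhesion molecules, channels and their partners. Most of their length is intron, which is transcribed and then removed, so that the mature mRNA is a small part of the span. DPP6 encodes a membrane protein without peptidase activity that associates with Kv4 potassium channels. PTPRT encodes a receptor protein tyrosine phosphatase of the type that mediates cell adhesion, and PTPRN2 (phogrin) a phosphatase-like protein in the membrane of dense-core vesicles. RBFOX1 encodes a splicing factor that binds UGCAUG. RGS6 encodes a regulator of G protein signalling of the R7 family, which works with the G protein subunit encoded by GNB5. LRMDA is known from melanocyte differentiation and albinism rather than from neurons, so the name neuronal fits 5 of the 6 by their known roles.

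On GRCh38, RBFOX1 spans 2.47 Mb of chromosome 16 (5239802 to 7713338, plus strand). LRMDA spans 1.13 Mb of chromosome 10 (75431453 to 76560167, plus strand), and PTPRT spans 1.12 Mb of chromosome 20 (42072752 to 43189970, minus strand). PTPRN2 and DPP6 both lie on chromosome 7, PTPRN2 over 1.05 Mb (157539056 to 158587788, minus strand) and DPP6 over 1.01 Mb (153887097 to 154894285, plus strand). RGS6 is the shortest, with 0.634 Mb of chromosome 14 (71932439 to 72566529, plus strand). Merged exons make up 0.409% of the span in RBFOX1, 0.461% in PTPRN2, 0.581% in LRMDA, 1.16% in PTPRT, 1.35% in DPP6 and 1.41% in RGS6. The genes thus share a span that is almost all intron, and only PTPRN2 and DPP6 share a chromosome.

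Promoter windows of 300 bases (250 before to 50 after a start, RefSeq on GRCh38.p14) were listed for 5 of the 6 genes, 15 windows in all. The windows with the most and the fewest CpG dinucleotides among them are printed to show how unlike the listed start sites are. Start sites of 1 gene also differ widely, with 5 to 38 CpG in windows of RBFOX1. Capitals mark each CpG, and both run 5′ to 3′ on the gene's strand.
PTPRT, chr20:43189857-43190156, minus strand: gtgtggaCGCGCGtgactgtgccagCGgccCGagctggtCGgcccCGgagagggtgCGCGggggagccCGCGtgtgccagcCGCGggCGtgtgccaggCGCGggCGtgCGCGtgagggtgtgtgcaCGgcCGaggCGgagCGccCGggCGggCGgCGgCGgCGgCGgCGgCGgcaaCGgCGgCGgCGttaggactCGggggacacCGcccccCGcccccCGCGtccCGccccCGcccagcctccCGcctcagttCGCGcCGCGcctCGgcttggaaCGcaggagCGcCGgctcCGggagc
LRMDA, chr10:75647259-75647558, plus strand: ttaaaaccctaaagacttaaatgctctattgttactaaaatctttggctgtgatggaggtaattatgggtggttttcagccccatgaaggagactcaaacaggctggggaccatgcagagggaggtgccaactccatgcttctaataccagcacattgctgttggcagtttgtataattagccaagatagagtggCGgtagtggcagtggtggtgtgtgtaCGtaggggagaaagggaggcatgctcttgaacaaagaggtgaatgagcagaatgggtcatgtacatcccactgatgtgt
The PTPRT window holds 53 CpG and is 81.7% G or C, and 99.4% of 35116 windows in RefSeq hold fewer CpG. The LRMDA window lies inside the annotated span, holds 2 CpG and is 46.3% G or C. The median over all windows is 14 CpG and 58.7% G or C. On either strand, TATAAA was found in 2 of the 15 windows (11.5% of all windows) and GGGCGG in 8 (45.0% of all). CCAAT was found in 2 (34.6% of all). CAGCACC, a stretch of the element bound by the neuronal gene repressor REST, was found in 2 (7.75% of all), and another stretch of it, GGACAGCG, in 0 (1.63% of all). These matches describe letters in the windows only.

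Total counts ran from 5848305 to 10557740 per library, lowest in tDR replicate 1. Of the genes tested, 2206 (12.8%) were higher and 1962 (11.4%) lower in the tDR libraries by edgeR's quasi-likelihood test at a Benjamini-Hochberg adjusted p under 0.05, and 3295 and 907 with scaling to library size alone. Together these are 24.3% of the genes tested, and every tDR library lay above every control library in 11.8% of them. All 6 genes did so, which follows in large part from how they were chosen. Levels below are in CPM, read counts scaled to a common library size, with TMM factors (trimmed mean of M values). They compare libraries within a gene, and genes are compared further below per Mb of span.

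DPP6, the Kv4 channel partner, stood at 19.2, 23.6, 25.9 and 20.2 CPM in control replicates 1 to 4 and at 48.4, 42.9, 48.9 and 45.5 CPM in tDR replicates 1 to 4. Its lowest tDR library was replicate 2 and its highest control replicate 3. The means were 22.2 ± 3.10 and 46.4 ± 2.79 CPM (SD, n = 4), a fold change of 2.11. PTPRN2, the vesicle protein, stood at 25.5, 22.6, 29.4 and 23.6 CPM in the controls and at 45.7, 47.1, 52.2 and 43.2 CPM in the tDR libraries. Its means were 25.3 ± 3.00 and 47.1 ± 3.81 CPM, a fold change of 1.87, and control replicate 3 was the highest of its group.

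PTPRT, the adhesion phosphatase, stood at 19.2, 22.6, 13.7 and 21.2 CPM in the controls and at 34.7, 42.7, 43.2 and 41.9 CPM in the tDR libraries. Control replicate 3 and tDR replicate 1 were low within their groups. The means were 19.2 ± 3.93 and 40.6 ± 3.98 CPM, a fold change of 2.101. RBFOX1, the splicing factor, stood at 39.3, 57.5, 35.9 and 43.3 CPM in the controls and at 70.3, 89.6, 83.5 and 75.4 CPM in the tDR libraries. In both groups replicate 2 was the highest library. The RBFOX1 means were 44.0 ± 9.49 and 79.7 ± 8.55 CPM, a fold change of 1.81.

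RGS6, the G protein regulator, stood at 12.9, 13.6, 12.9 and 11.4 CPM in the controls and at 21.5, 37.8, 28.1 and 28.5 CPM in the tDR libraries. Its controls were close together, while tDR replicate 1 was low and tDR replicate 2 high. The means were 12.7 ± 0.922 and 28.99 ± 6.70 CPM, a fold change of 2.30, the largest of the 6. LRMDA stood at 43.9, 40.6, 37.8 and 37.1 CPM in the controls and at 58.1, 71.6, 72.8 and 72.8 CPM in the tDR libraries. Here too tDR replicate 1 was the lowest of its group. The LRMDA means were 39.9 ± 3.08 and 68.8 ± 7.19 CPM, a fold change of 1.73, the smallest of the 6.

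**Figure D1:**
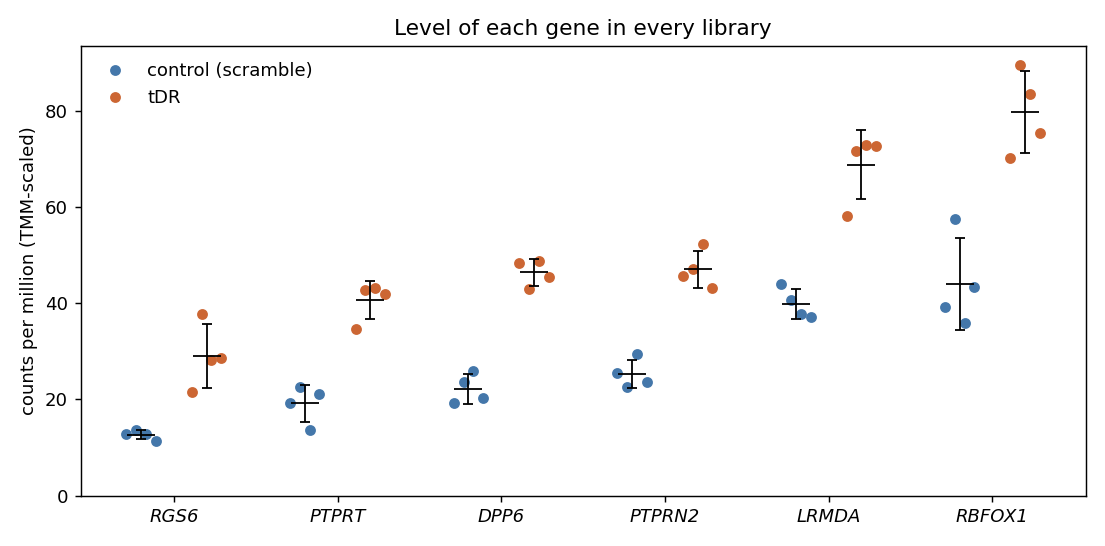
CPM (TMM-scaled, linear axis from 0) of each of the 6 genes in every library, with points for replicates 1 to 4 from left to right, and bars for the mean and SD of 4 libraries. In each gene the 4 tDR points lie above the 4 control points, as in RGS6, where the highest control is 13.6 and the lowest tDR library 21.5 CPM.

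On the log2 scale the fitted differences were 1.202 ± 0.13 in RGS6, 1.07 ± 0.10 in DPP6, 1.07 ± 0.11 in PTPRT, 0.90 ± 0.10 in PTPRN2, 0.85 ± 0.09 in RBFOX1 and 0.79 ± 0.08 in LRMDA (SE). The SE is the absolute difference divided by the square root of edgeR's F statistic, and it is given as a description. With the density of silent receptor genes, given below, subtracted per span they were 2.40 in RGS6, 1.87 in DPP6, 2.51 in PTPRT, 1.36 in PTPRN2, 1.89 in RBFOX1 and 0.96 in LRMDA. The count expected from that density averaged 93.9% of the control count in PTPRT, 89.7% in RBFOX1 and 78.4% in RGS6. It averaged 72.1% in DPP6, 66.2% in PTPRN2 and 44.5% in LRMDA. In PTPRT control replicate 3 the 86 counts lay under the 101.4 expected and were set to 0. The subtracted values thus rest on the control counts that remain, which are few in several of these genes. The 6 genes summed to 155.6 to 180.5 CPM in the controls and to 278.7 to 331.7 CPM in the tDR libraries, with tDR replicate 1 the lowest of its group. Of this sum RBFOX1 held 26.8% ± 3.87 in the controls and 25.5% ± 1.05 in the tDR libraries, LRMDA 24.5% ± 2.12 and 22.1% ± 1.202, PTPRN2 15.6% ± 2.63 and 15.14% ± 1.185, DPP6 13.65% ± 2.06 and 14.99% ± 1.83, PTPRT 11.7% ± 2.05 and 13.03% ± 0.498, and RGS6 7.78% ± 0.471 and 9.24% ± 1.575 (SD, n = 4).

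What a count of such a gene holds was read from the table itself, because no source used here states the counting settings. The spans of the 6 genes hold 45 other annotated genes from end to end, and all 45 had 0 counts in all 8 libraries. Among them are the microRNA genes MIR153-2 in PTPRN2, MIR606 in LRMDA and MIR7843 in RGS6. Over the whole table, 9691 of 9784 genes lying inside a gene of the opposite strand only were at 0 (99.0%). Genes inside a gene of the same strand were at 0 in 7851 of 7897 cases (99.4%), against 5678 of 23107 genes that touch no other gene (24.6%). A count over whole gene spans that ignores strand and leaves out reads shared by several genes would give such a table. The 0 counts of the enclosed genes thus set no limit on their RNA. Other genes cover 0.632% of the PTPRT span, 0.681% of LRMDA, 2.21% of RGS6, 2.28% of PTPRN2, 2.53% of RBFOX1 and 4.71% of DPP6.

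Counts of genes best known from other tissues, called silent genes here, were compared with the span in the same way. In a list of 50 intron-rich genes of liver, muscle, retina, gut, skin and blood, counts summed over the libraries had a Spearman correlation of 0.695 with the span and 0.382 with the merged exon length. These are correlations across genes, which are not independent replicates. In the 44 of these genes with any counts, the middle 50% of values ran from 1.04 to 2.49 counts per kb of span, a 2.40-fold range. Per kb of exon they ran from 7.61 to 38.8, a 5.10-fold range. EYS, a retinal gene of 1987 kb, had 2098 counts over the 8 libraries. CPS1, a urea cycle gene, stood far above the rest with 14.9 counts per kb of span. The list rests on textbook knowledge of where these genes are used, and their silence in HEK293 was not tested otherwise. Some, such as SLC5A1 and SLC26A4, are also used in parts of the kidney.

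**Figure D2:**
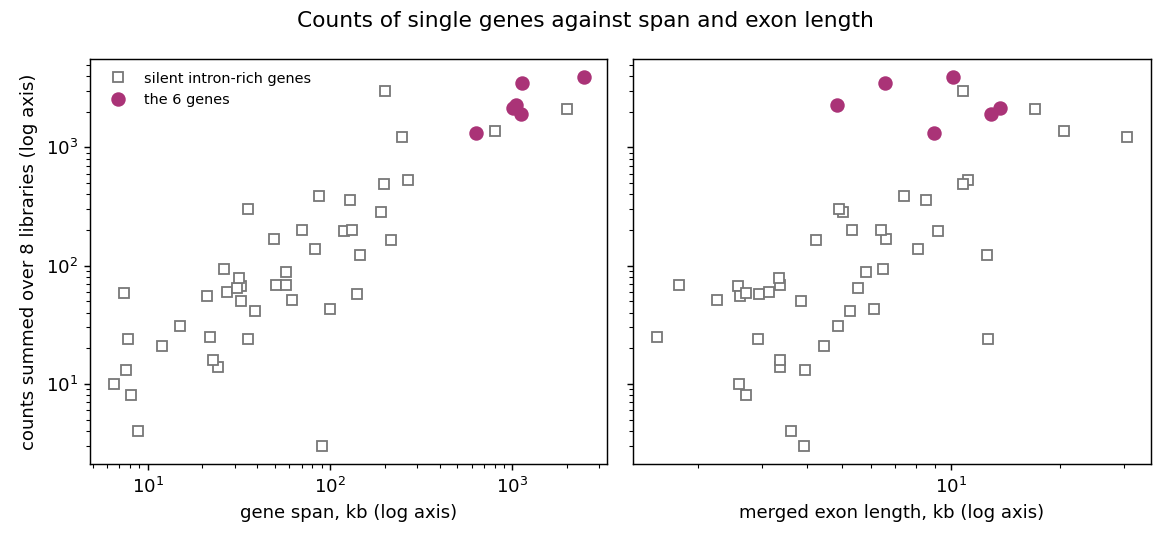
Counts summed over 8 libraries (log axis) against gene span (left) and merged exon length (right, both log axes) for the 44 silent intron-rich genes with counts (open squares) and the 6 genes (filled circles). Against span the 6 genes continue the band of the squares, near EYS (1987 kb, 2098 counts), and against exon length they lie above nearly all squares.

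The density of counts over silent genes was itself higher in the tDR libraries. Over 381 olfactory receptor genes, which encode odour receptors of the nose, the density was 15.8, 18.5, 14.4 and 14.1 CPM per Mb of span in control replicates 1 to 4 and 23.2, 24.8, 25.6 and 24.2 in tDR replicates 1 to 4. The means were 15.7 ± 1.98 and 24.4 ± 1.01, a ratio of 1.56 (SD, n = 4), with p = 0.0286 in a two-sided exact permutation test, the lowest value possible with 70 assignments. Of these receptor genes 269 touch no other annotated gene, and their density was higher, at 23.8 ± 3.02 and 35.9 ± 1.34 CPM per Mb, a ratio of 1.51. The 22 silent intron-rich genes that touch no other gene, with CPS1 left out, stood at 22.4 ± 2.03 and 40.3 ± 3.03 CPM per Mb, a ratio of 1.80. These 2 narrower sets were chosen after the data were seen. A planned set of 189 small silent genes stood at 12.5 ± 2.35 and 17.1 ± 1.26 CPM per Mb, a ratio of 1.37, and the planned list of 50 intron-rich genes at 26.0 ± 1.63 and 36.1 ± 2.50, a ratio of 1.39. Without CPS1, left out after the data were seen, the latter ratio was 1.55. In every one of these 6 sets the tDR libraries lay above the controls (exact two-sided permutation p = 0.0286 in each).

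Per Mb of span the 6 genes lay in or near the range of the silent genes. In the controls PTPRT had 17.2 ± 3.52 CPM per Mb, RBFOX1 17.8 ± 3.84, RGS6 20.01 ± 1.46, DPP6 22.1 ± 3.08, PTPRN2 24.1 ± 2.86 and LRMDA 35.3 ± 2.73 (SD, n = 4). In this order each gene from PTPRT to PTPRN2 overlapped its neighbour in single libraries. LRMDA stood apart, with its lowest control at 32.9 and the highest PTPRN2 control at 28.0 CPM per Mb. In the tDR libraries the order was RBFOX1 at 32.2 ± 3.46, PTPRT at 36.4 ± 3.56, PTPRN2 at 44.9 ± 3.63, RGS6 at 45.7 ± 10.6, DPP6 at 46.1 ± 2.77 and LRMDA at 61.0 ± 6.37 CPM per Mb. RBFOX1 and PTPRT overlapped each other, the next 3 overlapped each other, and LRMDA overlapped RGS6 but not DPP6. RGS6, at 33.9 to 59.6 CPM per Mb, also overlapped RBFOX1 and PTPRT.

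**Figure D3:**
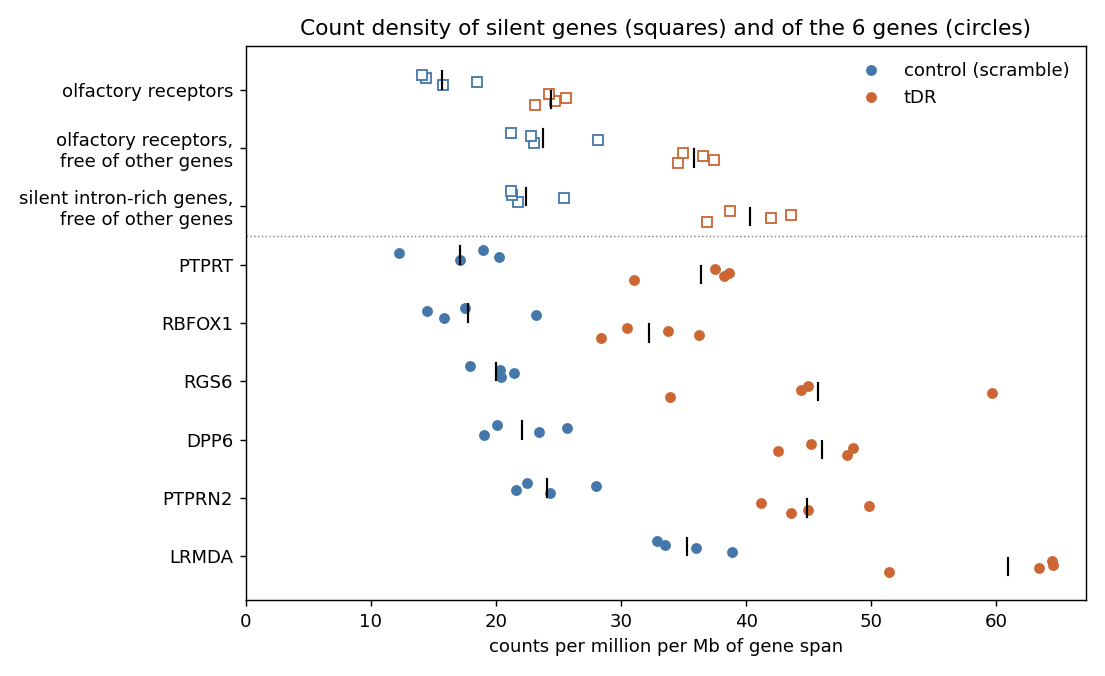
CPM per Mb of gene span (linear axis from 0) in every library, for 3 sets of silent genes (squares, above the dotted line) and the 6 genes (circles), with black ticks for the mean of 4 libraries. Controls of 5 genes fall at 12.2 to 28.0, around the silent sets, and LRMDA lies to the right of them at 32.9 to 38.9. In every set and gene the tDR libraries lie to the right of the controls.

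Divided by the count that the olfactory receptor density gives for its span, RBFOX1 stood at 1.13 ± 0.141 in the controls and 1.32 ± 0.105 in the tDR libraries, and PTPRT at 1.09 ± 0.203 and 1.49 ± 0.0981. RGS6 stood at 1.28 ± 0.101 and 1.87 ± 0.397, DPP6 at 1.42 ± 0.259 and 1.89 ± 0.147, and PTPRN2 at 1.56 ± 0.317 and 1.84 ± 0.106. LRMDA stood highest, at 2.27 ± 0.220 and 2.49 ± 0.189 (SD, n = 4). A value of 1 means that the gene had as many counts per span as the 381 receptor genes summed. Of these, 135 were at 0 in all libraries, against 43 of the 269 that touch no other gene, whose density was higher. On this scale the tDR and control libraries separated in RGS6 and overlapped in the other 5 genes, among them RBFOX1, where the highest control was 1.26 and the lowest tDR library 1.23.

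How far the genes stood above silent sequence depended on which silent genes were used. Against receptor genes that touch no other gene, the controls were at 0.724 ± 0.147 in PTPRT, 0.745 ± 0.0960 in RBFOX1, 0.846 ± 0.0602 in RGS6, 0.934 ± 0.142 in DPP6, 1.03 ± 0.193 in PTPRN2 and 1.498 ± 0.172 in LRMDA. The tDR libraries were at 1.01 ± 0.0783, 0.896 ± 0.0630, 1.27 ± 0.252, 1.29 ± 0.108, 1.25 ± 0.0830 and 1.70 ± 0.151 in the same order. Here the groups separated in PTPRT, RGS6 and DPP6. Against the 22 silent intron-rich genes that touch no other gene, the controls ran from 0.764 in PTPRT to 1.58 in LRMDA and the tDR libraries from 0.799 in RBFOX1 to 1.51 in LRMDA. On that scale the ratio of tDR to control was 0.957 in LRMDA, 1.01 in RBFOX1, 1.03 in PTPRN2, 1.16 in DPP6, 1.18 in PTPRT and 1.26 in RGS6, and the libraries of the groups overlapped in all 6. Over these 6 silent sets, the groups separated in all 6 genes with the full intron-rich list, in 3 with the receptor genes that touch no other gene, and in 2 each with the small genes and with the intron-rich list without CPS1. They separated in 1 with all receptor genes and in 0 with the 22 genes that touch no other gene. The 6 genes were chosen for higher counts in the tDR libraries, and such separation was not counted in other genes on these scales. In CPM, every tDR library lay above every control library in 41.9% of 308 other very long genes and in 11.8% of all genes tested. Of the 6 genes, LRMDA lay above the silent density in both groups with each of the silent sets used.

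Other very long genes were higher as well. Of 311 further protein-coding genes with a span over 0.5 Mb, 308 were tested, and 170 of them (55.2%, against 12.8% of all genes) were higher in the tDR libraries and 2 lower. The latter were CREB5 and TENM1, both at -0.17, and neither passed with scaling to library size alone, nor TENM1 without control replicate 3 or tDR replicate 2. These 308 genes had a median log2 fold change of 0.24, against 0.02 over all genes tested. With scaling to library size alone 215 were higher and 0 lower (edgeR). With the receptor density subtracted from every gene, 259 of the further very long genes could be tested, and 65 were higher and 10 lower. Over all genes 15101 were tested there, and 1118 were higher and 1095 lower. Without subtraction, the very long genes that were lower numbered 10 without control replicate 2, 4 without control replicate 4 and 1 without tDR replicate 2. The share of higher genes rose with span, from 5.94% of protein-coding genes under 20 kb and 8.71% at 20 to 100 kb to 18.6% at 100 to 500 kb. Lower genes numbered 716 of 3789, 921 of 6151 and 251 of 3035 in these classes.

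Among the very long genes the size of the difference went with the level. In 70 genes with a control density within the range of the 6 genes, 60 were higher and 0 lower, with a median of 0.61. In the 52 tested genes below that range 46 were higher and 0 lower, with a median of 0.70. In the 186 genes above it 64 were higher and 2 lower, with a median of 0.11. The shares higher were 85.7%, 88.5% and 34.4% in the same order, against 12.8% of all genes tested. These classes were set after the data were seen. The control libraries that set them also enter the log2 fold change, so level and difference are not independent here. By log2 fold change RGS6, DPP6, PTPRT, PTPRN2, RBFOX1 and LRMDA ranked 1, 4, 5, 15, 22 and 37 of the 314 very long genes tested, and by control density 241, 228, 262, 218, 254 and 187 from the highest. The high ranks by log2 fold change follow in large part from how the 6 genes were chosen.

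**Figure D4:**
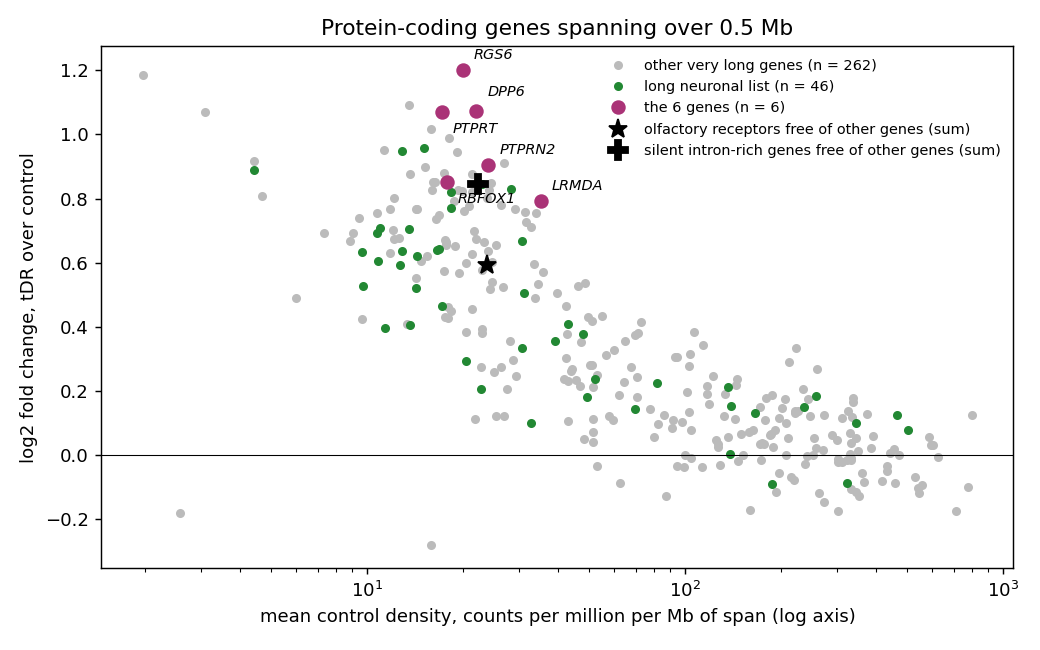
Log2 fold change of tDR over control against mean control density (CPM per Mb of span, log axis) for the 314 tested protein-coding genes spanning over 0.5 Mb, with the summed silent sets as black symbols. The 6 genes, chosen for higher counts in the tDR libraries, lie at the upper edge of the cloud at low density. They run from 0.79 for LRMDA to 1.202 for RGS6, and the cloud falls towards 0 at high density.

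In a list of 48 long genes used in neurons 37 were higher (77.1%, against 12.8% of all genes tested) and 0 lower (against 11.4%). Their median log2 fold change was 0.41. CDH13, which encodes an adhesion molecule, stood at 17.7 ± 2.07 CPM in controls and 34.2 ± 3.58 in tDR libraries (difference of 0.96 on the log2 scale, adjusted p = 1.83e-09 by edgeR). TENM2, which encodes a teneurin, rose from 27.8 ± 5.04 to 49.4 ± 1.89 CPM (0.83, adjusted p = 2.05e-09 by edgeR). ASIC2, an acid-sensing channel gene, rose by 0.95 and OPCML, an adhesion gene, by 0.77. With the receptor density subtracted the log2 fold change was 1.09 in TENM2 and 1.40 in OPCML. ASIC2 could not be tested there, and its control density of 12.9 CPM per Mb is under that of the receptor genes. The control density was 15.1 CPM per Mb in CDH13, also under the receptor density of 15.7, and 18.4 in OPCML. In CDH13 the subtraction leaves almost no control counts, so its log2 fold change after subtraction measures nothing and is not given. Few control counts are left in OPCML, and its 1.40 rests on them. LRP1B, a receptor gene named after its values were seen, was far more abundant, at 492 ± 47.0 and 559 ± 44.8 CPM, and its log2 fold change was 0.19, which did not pass without control replicate 2 or tDR replicate 3. Outside the neuronal list, ADAMTSL1 rose by 0.83 and CLSTN2 by 0.91. The genes nearest the limit of 0.5 Mb among those higher were KCNAB1 (501.4 kb, 1.07) and PPP2R2B (503.6 kb, 0.82) inside it and SLC27A6 (495.6 kb, 0.52) and PTH2R (494.8 kb, 0.54) outside it. KCNAB1 did not pass without control replicate 3 or tDR replicate 3, and SLC27A6 not without control replicate 3, tDR replicate 2 or tDR replicate 3, nor with the receptor density subtracted. PTH2R did not pass with no filter on low counts or without control replicate 4 or tDR replicate 2. Neither KCNAB1 nor PTH2R could be tested with the receptor density subtracted.

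A list of 11 genes held Kv4 channels, their partners and relatives of DPP6, with a median log2 fold change of 0.34. Of the list, 5 were higher (45.5%, against 12.8% of all genes tested) and 0 lower (against 11.4%). These were the channel genes KCND2 (0.35) and KCND3 (0.59), the modulator genes KCNIP1 (0.34) and KCNIP4 (0.62), and DPP10 (0.64), the closest relative of DPP6. DPP10 spans 1403 kb, and its control density was 12.9 CPM per Mb. The list also holds the peptidase genes DPP4, DPP8 and DPP9, which are relatives of DPP6 and not channel partners. DPP4 did not pass (0.24). DPP8 and DPP9, at 85.2 ± 4.06 and 96.7 ± 4.90 CPM in the controls, had log2 fold changes of -0.0012 and 0.07 and did not pass. KCND2 and KCNIP1 did not pass with the receptor density subtracted, and DPP10 and KCNIP4 could not be tested there. KCNIP1 did not pass with no filter on low counts either, nor without control replicate 3, control replicate 4, tDR replicate 3 or tDR replicate 4.

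Of 16 other receptor tyrosine phosphatase genes tested, 6 were higher (37.5%, against 12.8% of all genes tested) and 0 lower (against 11.4%). Their median was 0.16. PTPRR went from 4.04 ± 0.938 to 7.48 ± 1.57 CPM (0.89) and PTPRE from 5.76 ± 1.24 to 9.40 ± 0.839 CPM (0.69). The more abundant PTPRG and PTPRM rose by 0.17 and 0.19. PTPRR could not be tested with the receptor density subtracted. PTPRE and PTPRM did not pass with the receptor density subtracted, nor PTPRG without control replicate 2, control replicate 3 or tDR replicate 3, nor PTPRM without tDR replicate 4. Neither PTPRG nor PTPRM passed with no filter on low counts. PTPRK, a close relative of PTPRT, stood at 244 ± 10.3 and 245 ± 5.96 CPM (0.01) and did not pass. Among 6 tested genes of dense-core vesicles, where the PTPRN2 protein resides, CADPS (0.90) and PCSK2 (0.63) rose and 0 fell. That is 33.3% higher, against 12.8% of all genes tested. PCSK2 did not pass without control replicate 3, tDR replicate 3 or tDR replicate 4, and it could not be tested with the receptor density subtracted. CADPS went from 8.48 ± 1.52 to 15.7 ± 1.64 CPM, and with the receptor density subtracted its log2 fold change was 1.85. Its control density of 17.8 CPM per Mb is little above the receptor density, so the 1.85 rests on few remaining control counts. PCSK1 and SCG5 are listed at 0. PCSK1 lies inside a gene of the opposite strand, so its 0 sets no limit on its RNA. SCG5 overlaps another gene in part, a position in which 5.58% of protein-coding genes were at 0. Whether the overlap accounts for the 0 of SCG5 was not tested. PTPRN, the nearest relative of PTPRN2, was under 1 CPM in both groups (0.997 ± 0.609 and 0.643 ± 0.497).

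The paralogs and splicing partners of RBFOX1 went mainly the other way. Of 15 genes 9 fell (60.0%, against 11.4% of all genes tested) and 1 rose (6.67%, against 12.8%). Their median was -0.14, against 0.02 over all genes tested. HNRNPM went from 767 ± 34.1 to 606 ± 24.0 CPM (-0.34, edgeR, adjusted p = 3.57e-08), HNRNPC from 888 ± 26.0 to 723 ± 17.03 CPM (-0.30), MATR3 from 769 ± 17.7 to 623 ± 30.8 CPM (-0.30) and HNRNPH1 from 815 ± 22.0 to 676 ± 22.8 CPM (-0.27). All 4 encode proteins that bind RNA in the nucleus. The gene that rose was RBFOX3, a neuron marker of 426.8 kb (0.62). RBFOX2, the paralog in wide use outside neurons, stood at 358 ± 14.0 and 348 ± 5.82 CPM (-0.04) and did not pass.

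Of 10 tested R7 regulator genes and partners of RGS6, 3 rose (30.0%, against 12.8% of all genes tested) and 1 fell (10.0%, against 11.4%). Their median was 0.08. RGS9 rose by 0.68, GPR158, a receptor gene, by 0.56 and RGS7 by 0.22, and GNAI3, which encodes a G protein alpha subunit, fell by 0.20. RGS7 did not pass without control replicate 4, tDR replicate 3 or tDR replicate 4, GPR158 without control replicate 3 or tDR replicate 3, and GNAI3 with scaling to library size alone. Neither GPR158 nor GNAI3 passed with the receptor density subtracted. GNB5 stood at 13.6 ± 1.98 and 15.9 ± 2.35 CPM and did not pass (0.23, edgeR, adjusted p = 0.252). Of 8 tested melanosome and pigment genes, the field in which LRMDA is known, TYR rose and 0 fell. The share higher, 12.5%, is near the 12.8% of all genes tested, and the median was 0.11. TYR, the tyrosinase gene, was low, at 1.27 ± 0.495 and 2.85 ± 0.652 CPM, and it did not pass without control replicate 4, tDR replicate 1 or tDR replicate 3. It could not be tested with the receptor density subtracted. MLANA, listed at 0, lies inside a gene of the opposite strand, and its 0 sets no limit on its RNA.

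Neuron markers went in both directions. Of 22 markers 16 were tested, and 6 were higher (37.5%) and 2 lower (12.5%), with a median of 0.33, against 12.8%, 11.4% and 0.02 over all genes tested. Their summed level was 692 to 742 CPM in the controls and 642 to 683 CPM in the tDR libraries. SNAP25, a synaptic gene, is listed at 0 in all libraries, but it lies inside a gene of the opposite strand, so its 0 sets no limit on its RNA. TUBB3, STMN2, SLC17A6 and ELAVL3 were under 2 CPM in both groups. NEFM, a neurofilament gene, was the most abundant marker named here, and it and NEFL fell, NEFM from 230 ± 17.4 to 173 ± 9.51 CPM (-0.41) and NEFL from 112 ± 4.91 to 81.9 ± 9.32 CPM (-0.46). The 6 higher markers were RBFOX3, GRIN2B (0.66), a glutamate receptor gene of 544 kb, DCX (1.12), CAMK2A (1.23), DLG4 (0.71) and SLC17A7 (0.84), the last 4 named after their values were seen. DCX went from 3.24 to 7.01 CPM, CAMK2A from 1.47 to 3.46, DLG4 from 6.98 to 11.4 and SLC17A7 from 2.08 to 3.66. GRIN2B did not pass with the receptor density subtracted, CAMK2A could not be tested there, and SLC17A7 did not pass under 12 of the alternatives. As a check of the cell line, 8 genes were read, of which 3 were higher (37.5%) and 1 lower (12.5%). PAX2 (0.44), KRT8 (0.63) and CD24 (1.34) were higher and CDH2 (-0.16) lower. The other 4 did not pass, among them VIM, at 155 ± 8.38 and 157 ± 2.72 CPM. CD24 was low, at 1.53 ± 0.458 CPM in the controls and 3.90 ± 0.870 CPM in the tDR libraries. KRT8 did not pass without tDR replicate 2, nor CDH2 with scaling to library size alone or with the receptor density subtracted.

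Over the 8 libraries, the 5 genes most like the mean profile of the 6 genes were DDX42 (Pearson r = 0.993), ANKFN1 (0.990), PRICKLE2 (0.988), PRKCB (0.987) and SEMA5A (0.986). All have the difference between the groups in common with the 6 genes, and 8 libraries in 2 groups give high values easily. ANKFN1 spans 629.4 kb and SEMA5A 511.1 kb, with control levels of 12.0 and 7.30 CPM. DDX42, a helicase gene of 45.7 kb, was unlike the others in its level and went from 207 ± 7.28 to 276 ± 5.98 CPM. The summed olfactory receptor density had r = 0.973 with the same profile, and 25 of 15272 other genes with a symbol had a higher r than that.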

How the data were processed

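The authors deposited a table of raw read counts per gene, which holds whole numbers for 60606 genes in 4 control and 4 tDR libraries. Tools named in the submitters' processing notes are STAR 2.7.8a, featureCounts 2.0.2 and cutadapt 2.10, with FastQC 0.11.9, DESeq2 1.30.1 and the build GRCh38.p13. No source used here gives the strand or feature setting of the count. Genes were matched to GENCODE 29 for spans and exons (56976 rows, 94.0%). Differences were fitted over all genes with edgeR 4.0.16 (R 4.3.3, limma 3.58.1): low counts removed with filterByExpr, TMM scaling, quasi-likelihood test with group as the only term and Benjamini-Hochberg adjustment at 0.05. The scripts were tested on simulated data. Of 7 silent gene sets used, 1 chosen after the data were seen is not reported here. Alternatives were DESeq2 1.42.0, other scalings and filters, a replicate block, silent-gene density subtracted per span, and each library left out. Named genes are the 6, up to 4 tested genes per list with the smallest p, the 5 most alike in profile over log2(CPM + 0.1), the genes nearest 0.5 Mb among those higher, and up to 2 enclosed genes each. Others (LRP1B, CREB5, TENM1, KCNIP1, DPP8, DPP9, PTPRK, PTPRN, RBFOX2, GNB5, CPS1, VIM, DPP4, DCX, CAMK2A, DLG4, SLC17A7 and markers near 0) fall outside this rule and were named after their values were seen. The members and lists were chosen with earlier results of these data known.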

Additional observations from a re-analysis of the deposited data

Results flagged for a closer look

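The level of PTPRT in tDR replicate 1, 34.7 CPM, lay far from the other 3 tDR libraries, which were at 41.9 to 43.2 CPM. Without that library the log2 fold change of PTPRT was 1.13. LRMDA in the same library, at 58.1 CPM, lay far from the other tDR libraries at 71.6 to 72.8 CPM, and without it the log2 fold change was 0.85. The library also had the fewest total counts, 5848305. Of 14 groups of 4 libraries checked, these 2 stood out by Dixon's test, and chance marks about 1 in 20 such groups.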

How the results depend on the processing

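With the silent receptor density subtracted per span, 1118 of 15101 genes tested were higher and 1095 lower. Of 259 very long genes tested there, 65 were higher and 10 lower. The 6 genes had a median log2 fold change of 1.88, against 0.99 without subtraction. In most of the 6 genes the subtraction removes most control counts, and the median of 1.88 rests on those that remain. With library size alone 907 genes were lower. Very long genes lower numbered 5 with DESeq2's size factors, 0 with library size alone, 8 with no filter, 5 with a filter at 1 CPM and 6 with DESeq2's test. The median ratio of the 6 genes to silent density, 1.35 in controls and 1.85 in tDR libraries, was 1.73 and 2.66 with small genes, 0.810 and 1.25 with intron-rich genes, and 69.1 and 83.8 per kb of exon. With sets chosen after seeing the data it was 1.11 and 1.53 (intron-rich without CPS1), 0.890 and 1.26 (receptor genes touching no gene) and 0.941 and 1.12 (intron-rich touching no gene). Leaving out 1 library gave 1640 to 2200 genes higher, 1511 to 2109 lower, 137 to 176 very long genes higher and 1 to 10 lower, a median of 0.94 to 1.05, a silent ratio of 1.51 to 1.65, and ratios to silent density of 1.27 to 1.40 in controls and 1.76 to 1.88 in tDR libraries. With the replicate block 2040 genes were higher and 1834 lower, 163 very long genes were higher and 2 lower, and the median was 0.98. Same-numbered libraries did not deviate together (correlations of -0.0103, 0.0699, -0.0287 and 0.0192), so the numbers were not taken as pairs. The cause of these shifts was not tested. The receptor density is lower than that of receptor genes touching no other gene, so the subtraction removes less than those would.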
